A study of Homo sapiens with 15 samples.

Results

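Rods turn light into an electrical signal through a chain of proteins known as the phototransduction cascade. The 9 genes described here encode proteins of that chain in rods, most of them in a form that cones replace by their own, and were chosen by symbol from the 19684 genes of the deposited tables: GNAT1, GNGT1, PDE6A, PDE6B, PDE6G, CNGA1, CNGB1, SAG and PDC. All 9 were found. They were followed in 15 poly(A) RNA-seq libraries, 3 in each of 5 groups, all derived from BC1-GFP, a single human induced pluripotent stem cell (hiPSC) line with a GFP reporter. The groups were undifferentiated hiPSCs, the neural retina layers of retinal organoids (ROs) at day 70 (D70-RO) and day 150 (D150-RO), and Müller glial cells expanded in culture from D150-RO neural retina and taken at passage 1 (P1 iMGC) or passage 5 (P5 iMGC). Each RO library pooled several organoids. The sources differ on whether 2 or 3 independent experiments stand behind the hiPSC and RO groups, so the p-values measure the spread between these libraries, which may in part be technical. None of the groups carried a further treatment.

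In the dark, cyclic GMP holds open a cation channel in the rod outer segment. A photon activates the visual pigment, the pigment activates the G protein transducin, transducin releases the phosphodiesterase PDE6 from its inhibitory subunit, PDE6 breaks down cyclic GMP, and the channel closes. GNAT1 is the alpha and GNGT1 the gamma subunit of rod transducin. PDE6A and PDE6B are the 2 catalytic subunits of rod PDE6, and PDE6G is the inhibitory subunit. CNGA1 and CNGB1 are the subunits of the rod channel. SAG is rod arrestin, which caps the activated pigment, and PDC is phosducin, which binds the beta and gamma subunits of transducin. Cones use a parallel set of genes for the same steps.

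The members lie at separate places in the genome. In GENCODE 29 (GRCh38) GNAT1 spans chr3:50191612-50196516, GNGT1 chr7:93591573-93911265, PDE6A chr5:149857955-149944793, PDE6B chr4:625584-670782, PDE6G chr17:81650459-81663112, CNGA1 chr4:47935977-48016672, CNGB1 chr16:57882340-57971116, SAG chr2:233307816-233347055 and PDC chr1:186443566-186461122. All 9 are annotated as protein-coding. RefSeq promoter windows on GRCh38.p14, from 250 bases before to 50 bases after an annotated start, matched 8 of the 9 by symbol, with 11 windows in all; PDE6G is the member without an entry. The windows were searched on both strands for TAATCC, a core of the sites bound by the photoreceptor factor CRX. They were also searched for TGCTGA, part of the sites of the MAF family to which the rod factor NRL belongs. TAATCC was present in windows of 3 of 8 members (CNGB1, PDE6A and SAG), in 3 of their 11 windows, and in 6.36% of all 35116 windows. TGCTGA was present in windows of 5 of 8 members (CNGA1, CNGB1, GNGT1, PDE6B and SAG), in 6 of the 11 windows, and in 17.3% of all windows. These counts describe letters in short windows and carry no test. The 250 bases before the start are shown for the 3 members with TAATCC and for PDE6B, whose TGCTGA lies 18 bases before the start in the window shown, with matches in capitals (TCAGCA is TGCTGA on the other strand). They are read along the coding strand of each gene, at chr16:57971129-57971378 (minus strand) for CNGB1, chr2:233307566-233307815 (plus) for SAG, chr5:149944794-149945043 (minus) for PDE6A and chr4:625323-625572 (plus) for PDE6B.
CNGB1: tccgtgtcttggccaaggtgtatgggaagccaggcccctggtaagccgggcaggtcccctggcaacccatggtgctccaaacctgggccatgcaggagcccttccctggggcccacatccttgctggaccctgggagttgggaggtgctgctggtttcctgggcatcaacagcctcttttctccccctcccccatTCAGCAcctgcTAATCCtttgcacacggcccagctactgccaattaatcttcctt
SAG: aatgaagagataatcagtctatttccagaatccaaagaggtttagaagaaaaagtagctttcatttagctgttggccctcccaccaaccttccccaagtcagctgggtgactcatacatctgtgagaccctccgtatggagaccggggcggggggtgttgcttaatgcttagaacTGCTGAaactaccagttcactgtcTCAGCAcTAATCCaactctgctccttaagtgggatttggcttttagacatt
PDE6A: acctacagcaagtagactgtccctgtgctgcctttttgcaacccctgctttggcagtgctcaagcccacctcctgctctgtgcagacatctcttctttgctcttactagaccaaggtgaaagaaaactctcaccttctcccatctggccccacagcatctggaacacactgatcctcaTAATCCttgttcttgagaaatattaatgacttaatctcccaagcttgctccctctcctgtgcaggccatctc
PDE6B: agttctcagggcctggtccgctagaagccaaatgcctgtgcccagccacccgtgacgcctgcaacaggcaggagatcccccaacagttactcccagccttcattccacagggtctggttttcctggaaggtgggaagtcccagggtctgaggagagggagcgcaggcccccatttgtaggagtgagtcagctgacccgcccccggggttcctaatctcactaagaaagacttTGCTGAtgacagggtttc
In CNGB1 and SAG both motifs stood close together without overlap. TAATCC began 44 bases before the start in both genes, and the nearest TGCTGA began 55 bases before it in CNGB1 and 51 bases before it in SAG. In PDE6A, TAATCC began 72 bases before the start.

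Expected counts, the estimated reads per gene, summed to between 11349600 and 20398755 per library. The photoreceptor markers followed the stages. Summed FPKM (fragments scaled by transcript length and by mapped reads, a level per length) of 5 photoreceptor markers (CRX, RCVRN, NRL, NR2E3 and ARR3) was 2.42 to 3.19 in hiPSCs, 51.3 to 55.2 at day 70 and 730 to 743 at day 150. It was 0.20 to 0.38 in P1 and 0.14 to 0.57 in P5 iMGCs, with CRX at 0 in all 6. The Müller markers VIM, SOX9, GLUL, RLBP1, SLC1A3, CRYAB and APOE went different ways. Their sum was 2229 to 2267 in P1 and 2984 to 3094 in P5 iMGCs, against 755 to 809 in hiPSCs, 1463 to 2337 at day 70 and 1206 to 1374 at day 150. VIM made up most of the sum in D70-ROs and D150-ROs, but not in hiPSCs, where it measured 154.10, 120.32 and 151.94 FPKM. GLUL, SOX9, SLC1A3 and RLBP1 were lower in every iMGC library than in every D150-RO library, with RLBP1 at 0 in the P1 libraries, and VIM, CRYAB and APOE were higher. The series description names 2 sequencing companies and some batch correction, with no word on which libraries each handled, so batch and group cannot be told apart here.

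Over the 15 libraries, D150-ROs held the highest level of all 9 members, and for each member all 3 D150-RO libraries lay above the other 12. Among all genes tested, the D150-RO libraries lay wholly above D70-ROs for 46.8%, above hiPSCs for 50.5%, above P1 iMGCs for 64.8% and above P5 iMGCs for 66.0%. In such bulk samples fewer cells of a type and less RNA per cell cannot be told apart. D150-RO means of GNAT1, GNGT1, PDE6B, PDE6G, CNGB1 and PDC were between 45.8 and 351.5 FPKM, and those of PDE6A and SAG were 8.56 and 8.49 FPKM. CNGA1 stayed lowest, at 0.83 ± 0.15 (SD, n = 3). In the iMGC libraries no member exceeded 0.64 FPKM.

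**Figure D1:**
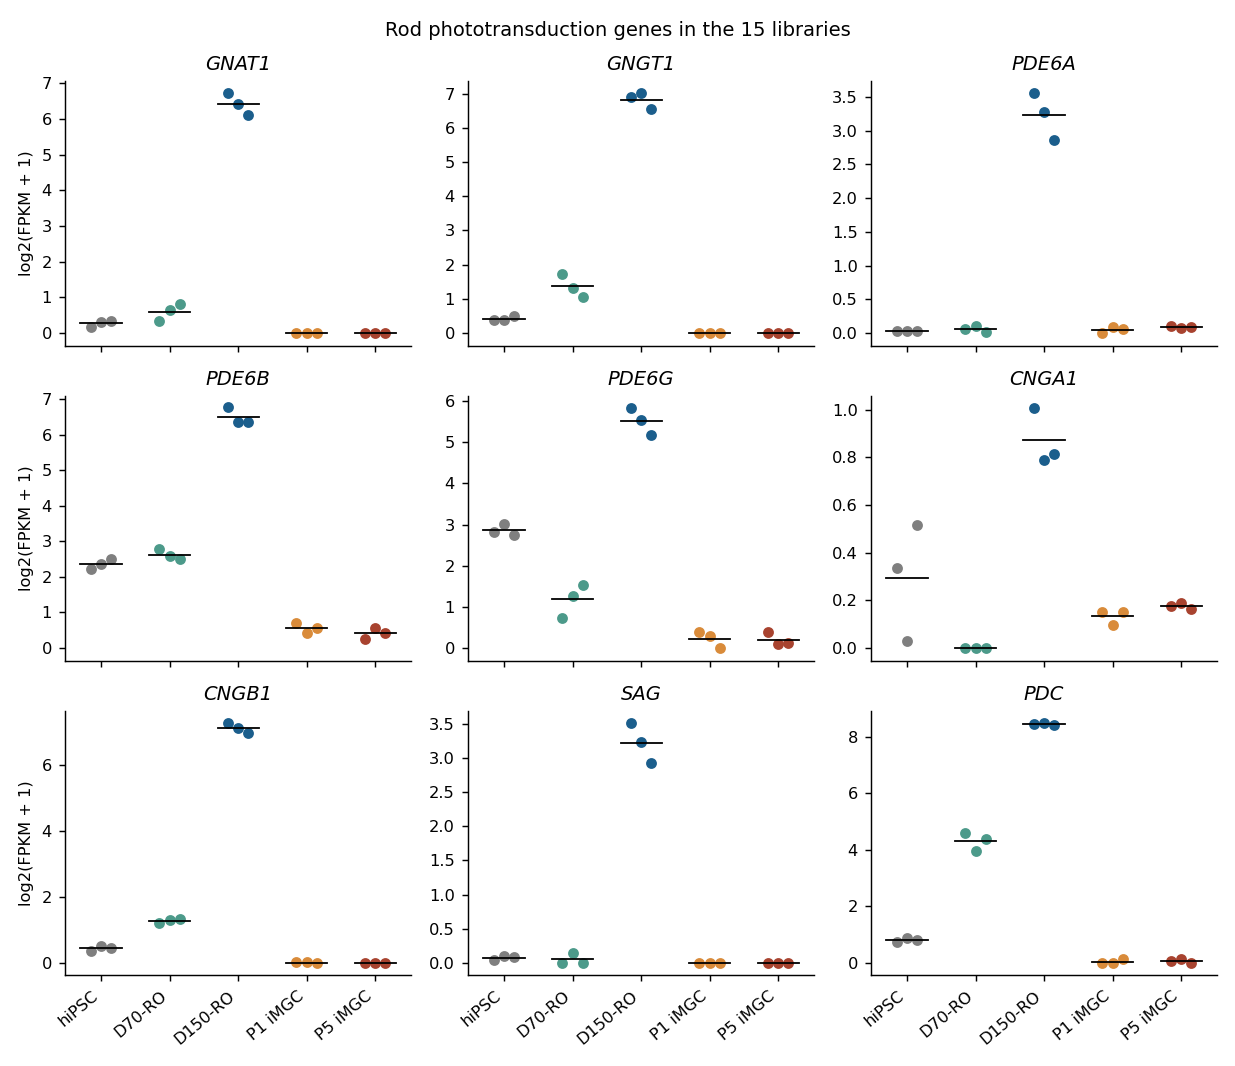
Level of each rod phototransduction gene as log2(FPKM + 1), with one point per library, 3 libraries per group and a bar at the group mean. Vertical scales differ between panels. Every D150-RO point lies above all points of the other groups, PDC is already above hiPSCs at day 70, PDE6G is lower at day 70 than in hiPSCs, and the iMGC points lie at or near 0.

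The first comparison asks which rod genes had changed by day 70, when the neural retina has formed but is young. PDC, CNGB1 and GNGT1 rose from hiPSCs to D70-ROs, PDE6G fell, and the others were low or did not pass the test. A gene was tested when at least 3 of the 6 libraries reached 1 FPKM, and called when the adjusted p of edgeR's quasi-likelihood test was under 0.05 and the fold change at least 2. 5 of the 9 members could be tested, 3 of them (PDC, CNGB1, GNGT1) only through their D70-RO level. 3 were called higher, beside 22.5% of all genes tested, and 1 lower, beside 21.1%. The FPKM of the groups did not overlap for these 4, as for 40.2% of all genes tested in the higher and 35.2% in the lower direction.

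PDC had the highest D70-RO level of the members. It measured 0.65, 0.85 and 0.75 FPKM in the hiPSC libraries and 23.34, 14.47 and 20.14 FPKM in the D70-RO libraries, so that the groups were far apart. The log2 fold change was 4.54 ± 0.24 (SE), with an adjusted p of 2.88e-08. Here and below the SE of an edgeR value is the size of the log2 fold change over the square root of the test's F statistic. It is not fitted directly and can be too small where a group has few reads. CNGB1 had 0.29, 0.41 and 0.38 FPKM in hiPSCs and 1.30, 1.46 and 1.51 FPKM in D70-ROs, with a log2 fold change of 2.10 ± 0.26 (adjusted p = 2.06e-05). GNGT1 had 0.30, 0.29 and 0.40 FPKM in hiPSCs and 2.29, 1.51 and 1.08 FPKM in D70-ROs, with a log2 fold change of 1.93 ± 0.47 (adjusted p = 0.00293). For both genes the groups did not overlap, although the D70-RO level was close to the limit for testing. On the log2(FPKM + 1) scale, where low genes move less, the changes of CNGB1 and GNGT1 were 0.83 and 0.96, under the 2-fold limit.

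PDE6G, the inhibitory subunit, went the other way. Its level was 6.09, 7.05 and 5.68 FPKM in hiPSCs and 0.67, 1.42 and 1.88 FPKM in D70-ROs, again without overlap. It fell by 1.90 ± 0.36 on the log2 scale (adjusted p = 0.000524). PDE6B was present at a like level in both groups, with 3.68, 4.17 and 4.70 FPKM in hiPSCs and 5.92, 4.99 and 4.69 FPKM in D70-ROs. Its log2 fold change of −0.03 ± 0.19 did not pass the test (adjusted p = 0.874), and took a positive sign on the FPKM scale and with upper-quartile scaling. PDE6B shares 711 of its 5086 exonic bases with the antisense gene AC107464.1, and since no strand setting was stated, reads of the 2 cannot be told apart. GNAT1 (0.13 to 0.27 FPKM in hiPSCs, 0.27 to 0.75 in D70-ROs), PDE6A (0.02 in each hiPSC library, 0.01 to 0.07 in D70-ROs) and SAG (0.03 to 0.07, then 0, 0.11 and 0) were under the limit for testing. So was CNGA1, which had 14, 1 and 12 reads in the hiPSC libraries and none in the 3 D70-RO libraries. A count of 0 allows up to 3 reads over the group, which puts CNGA1 at least 7.44-fold lower in D70-ROs by counting error alone.

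Of the cone counterparts, all 6 that could be tested (GNAT2, GNGT2, PDE6C, PDE6H, CNGA3 and ARR3) passed as higher at day 70 than in hiPSCs, beside 22.5% of all genes tested, with a median log2 fold change of 5.82, which was 0.02 over all genes tested. 5 of the 6, all but GNGT2, passed the filter only through their D70-RO level, so this median is not comparable with that of the rod genes. CNGB3 could not be tested, at 0.15, 0.08 and 0.20 FPKM in D70-ROs. Cone GNAT2 was at 14.93, 9.64 and 13.63 FPKM in D70-ROs, where rod GNAT1 stayed under 1 FPKM. PDE6H, the cone inhibitory subunit, was at 77.31, 68.18 and 71.02 FPKM. In 2 steps a rod gene was the higher per length at day 70: PDE6B was 1.93 to 4.58 times PDE6C, and CNGB1 was 7.55 to 18.25 times CNGB3. PDE6B was at a like level in hiPSCs, however, and PDE6A, the other rod catalytic subunit, was only 0.004 to 0.064 times PDE6C. The ratios with CNGB3 and PDE6A are poorly bounded. In D70-RO replicates 1, 2 and 3 CNGB3 had 13, 4 and 16 reads and PDE6A had 4, 3 and 1.

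The comparison of D150-ROs with D70-ROs asks how the rod genes changed over the later weeks. Rod transducin, PDE6, the channel subunit CNGB1, arrestin and phosducin all rose. Of the 9 members 8 could be tested, and these 8 were called higher, beside 16.6% of all genes tested. Their median log2 fold change was 6.01, and over all genes tested it was −0.01. 3 of the 8 (GNAT1, PDE6A and SAG) passed the filter only through their D150-RO level, so a difference in them was built in.

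Both transducin subunits came up from low levels, with 44 reads of GNAT1 and 54 of GNGT1 over the D70-RO libraries. GNAT1 had 0.27, 0.56 and 0.75 FPKM at day 70 and 105.09, 84.09 and 68.16 FPKM at day 150, a log2 fold change of 7.54 ± 0.24 (adjusted p = 8.14e-08). GNGT1 reached 118.71, 128.93 and 93.56 FPKM, a log2 fold change of 5.97 ± 0.23 (adjusted p = 1.60e-07). GNGT1 shares 44 exonic bases with TFPI2 on the other strand, 1.86% of its exonic length. The alpha subunit had the lower D70-RO level and the larger log2 fold change, a difference that was not tested, and at day 150 the levels of the pair overlapped.

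Among the PDE6 subunits, PDE6B and PDE6G were abundant and PDE6A was not. PDE6B measured 108.21, 81.62 and 81.60 FPKM in D150-ROs, with a log2 fold change of 4.55 ± 0.17 over D70-ROs (adjusted p = 1.34e-07). PDE6A measured 10.76, 8.68 and 6.24 FPKM, with a log2 fold change of 7.91 ± 0.37 (adjusted p = 4.45e-07). PDE6G measured 56.10, 45.93 and 35.38 FPKM, with a log2 fold change of 4.95 ± 0.33 (adjusted p = 2.50e-06). PDE6G therefore fell between hiPSCs and day 70 and rose between day 70 and day 150, ending above its hiPSC level by 3.04 ± 0.19 on the log2 scale (adjusted p = 1.16e-08). Although the alpha and beta subunits form a dimer in the enzyme, the per-length level of PDE6B was between 9.40 and 13.1 times that of PDE6A in the 3 D150-RO libraries.

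The channel subunits were still further apart. CNGB1 measured 154.25, 138.02 and 124.97 FPKM in D150-ROs, with a log2 fold change of 6.05 ± 0.15 over D70-ROs (adjusted p = 4.16e-08). CNGA1 measured 1.01, 0.73 and 0.76 FPKM, from 41, 32 and 33 reads. It was not tested, because only 1 library reached 1 FPKM; against the 0 reads of D70-ROs it was at least 36.0-fold higher, by counting error only. The per-length ratio of CNGB1 to CNGA1 lay between 153 and 189 in the D150-RO libraries. The CNGB1 gene also gives rise to shorter transcripts for glutamic-acid-rich proteins without a channel part, and the gene-level values do not separate these from the channel subunit.

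SAG and PDC, which act on the activated pigment and on transducin, differed in their D70-RO level. SAG had 0, 1 and 0 reads at day 70 and 215, 191 and 141 reads at day 150, where its level was 10.45, 8.43 and 6.60 FPKM. With a single D70-RO read the ratio is poorly bounded, with a 95% counting interval from 99.5-fold to 22036-fold. PDC measured 352.58, 361.10 and 340.82 FPKM in D150-ROs, the highest of the members. Its log2 fold change over D70-ROs was 3.95 ± 0.15 (adjusted p = 1.51e-07), the smallest of the 8, from a D70-RO level that was the highest of the members.

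Against hiPSCs the same 8 members were called higher in D150-ROs, beside 29.8% of all genes tested. This comparison shares its D150-RO libraries with the previous one. 6 of the 8 passed the filter only through D150-ROs; PDE6B and PDE6G passed in both groups, with log2 fold changes of 4.51 ± 0.14 and 3.04 ± 0.19.

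The cone counterparts also rose between day 70 and day 150. All 7 were called higher, beside 16.6% of all genes tested, with a median log2 fold change of 2.37. CNGB3 passed the filter only through its D150-RO level. For the alpha subunits of transducin the values were 7.54 for GNAT1 and 1.43 ± 0.17 for GNAT2, for the gamma subunits 5.97 for GNGT1 and 3.33 ± 0.15 for GNGT2, and for the inhibitory subunits of PDE6 4.95 for PDE6G and 1.38 ± 0.18 for PDE6H. The nearest pair was CNGB1 and CNGB3, at 6.05 and 5.09 ± 0.29. The rod value was the higher in each of these pairs, and the differences between paired fold changes were not tested. 1339 of the 1381 exonic bases of GNAT2 lie within exons of GNAI3 on the other strand, so its counts are uncertain.

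**Figure D2:**
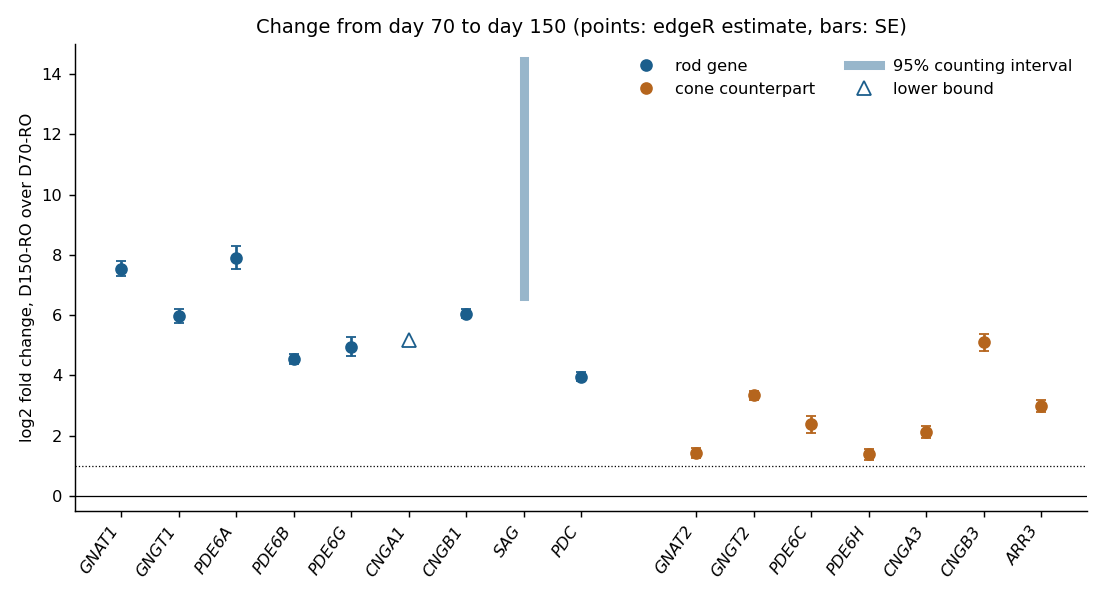
Log2 fold change of D150-ROs over D70-ROs for the 9 rod genes and 7 cone counterparts (edgeR estimate, bars of 1 SE, 3 libraries per group). The SE is derived from the test's F statistic. SAG is drawn as its 95% counting interval and CNGA1 as a lower bound, since D70-ROs had 1 read and none. The dotted line marks the 2-fold limit; rod values run from 3.95 (PDC) upward and cone values from 1.38 (PDE6H) to 5.09 (CNGB3).

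Set side by side per length, the rod forms went from a small to a large part of the shared cascade. The share was taken as the summed FPKM of 8 rod genes (all but PDC, which has no separate cone form) over that sum plus the 7 cone counterparts. It was 7.04%, 8.62% and 7.35% at day 70 and 48.3%, 43.8% and 33.9% at day 150, or 7.67% ± 0.84 and 42.0% ± 7.36 (SD, n = 3). From counts in place of FPKM the mean shares were 12.7% and 58.7%, and without GNGT1 and GNGT2 the D150-RO share was 53.3%, so which set was the larger at day 150 depends on the scale and the genes summed. The groups did not overlap. An exact two-sided permutation test gave p = 0.1, the smallest value possible with 3 libraries against 3. The D70-RO share rests mainly on PDE6B, which made up 4.69 to 5.92 of the 9.92 to 10.49 FPKM summed over the rod genes. In hiPSCs, which hold no retina, the same 8 genes summed to 10.80, 12.27 and 11.94 FPKM, each above all 3 D70-RO libraries, mainly from PDE6B and PDE6G. The cone sum was 2.53 to 3.54 FPKM in hiPSCs and 107 to 139 FPKM in D70-ROs.

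**Figure D3:**
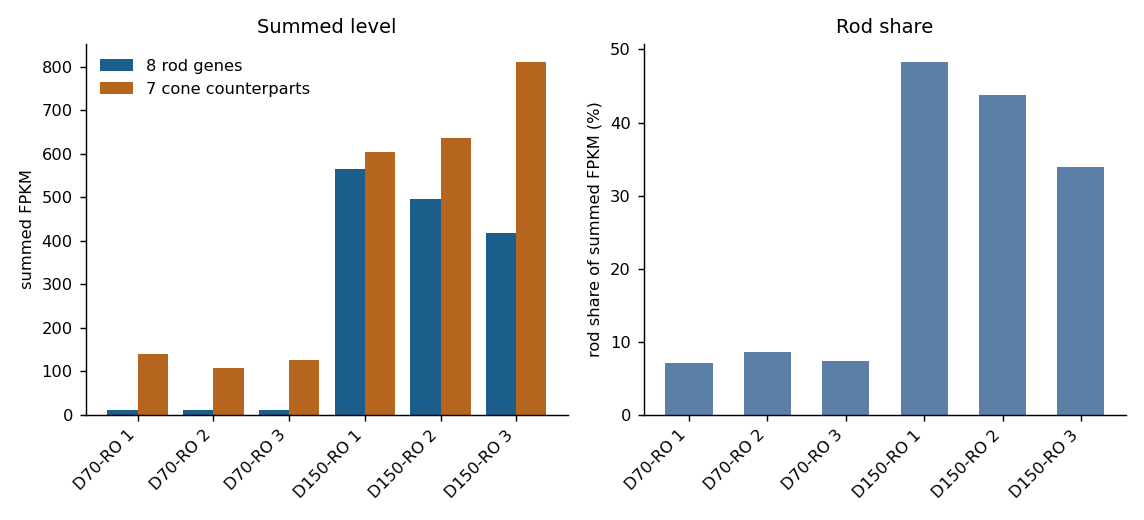
Left, summed FPKM of the 8 rod genes and of the 7 cone counterparts in each D70-RO and D150-RO library; right, the rod genes as a percentage of both sums. The rod share is 7.04% to 8.62% at day 70 and 33.9% to 48.3% at day 150, and on this FPKM scale the cone sum exceeds the rod sum in all 6 libraries, whereas from counts the rod share is 58.7% at day 150.

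Ratios within a cascade step varied among the D150-RO libraries. The per-length ratio of GNAT1 to GNAT2 was 3.70, 2.41 and 1.43 in replicates 1, 2 and 3, against 0.018 to 0.058 in D70-ROs. For PDE6B over PDE6C it was 12.9, 7.03 and 5.12, for PDE6G over PDE6H 0.346, 0.223 and 0.123, and for SAG over ARR3 0.236, 0.185 and 0.101. Replicate 1 was the highest in each of these and replicate 3 the lowest. For GNGT1 over GNGT2, at 0.342, 0.399 and 0.251, replicate 2 was the highest. CNGB1 over CNGB3, at 33.5, 22.0 and 16.6, overlapped the D70-RO values of 7.55 to 18.25, which rest on few CNGB3 reads.

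This difference between the D150-RO libraries ran through both gene groups. All 9 rod genes were higher in replicate 1 than in replicate 3, with a median ratio of 1.33 (range 1.03 to 1.72), and all 7 cone counterparts were lower, with a median ratio of 0.61 (range 0.52 to 0.93). Over the 12340 genes at 1 FPKM or more in the 3 libraries, 47.4% were higher in replicate 1 and the middle 90% of ratios lay between 0.76 and 1.27. Counts scaled by library total gave the same direction for all 9 and all 7. By FPKM, PDC, GNGT2 and CNGB1 differed least. The libraries were compared after these values had been seen, and 1 library against 1 allows no test. The other marker sums did not all move alike. The amacrine and horizontal cell markers summed to 62.2, 62.9 and 36.3 FPKM in replicates 1, 2 and 3. The bipolar cell markers summed to 272, 259 and 231 FPKM, and the progenitor markers to 109, 103 and 101 FPKM. The Müller markers were highest in replicate 2, at 1300, 1374 and 1206 FPKM. The ganglion cell markers were lowest in replicate 1, at 5.72, 7.01 and 6.54 FPKM. The pigment epithelium markers summed to 6.13, 5.60 and 5.59 FPKM and the pluripotent markers to 4.97, 5.71 and 3.93 FPKM. The sum of the photoreceptor markers differed little (743, 736 and 730), but its members went different ways. From replicate 1 to replicate 3, NRL (238.47 to 180.21 FPKM) and NR2E3 (62.98 to 52.33) fell. ARR3, itself a cone counterpart (44.26 to 65.62), RCVRN (257.19 to 282.17) and CRX (140.11 to 149.70) rose. The part of these markers in the result was not tested.

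**Figure D4:**
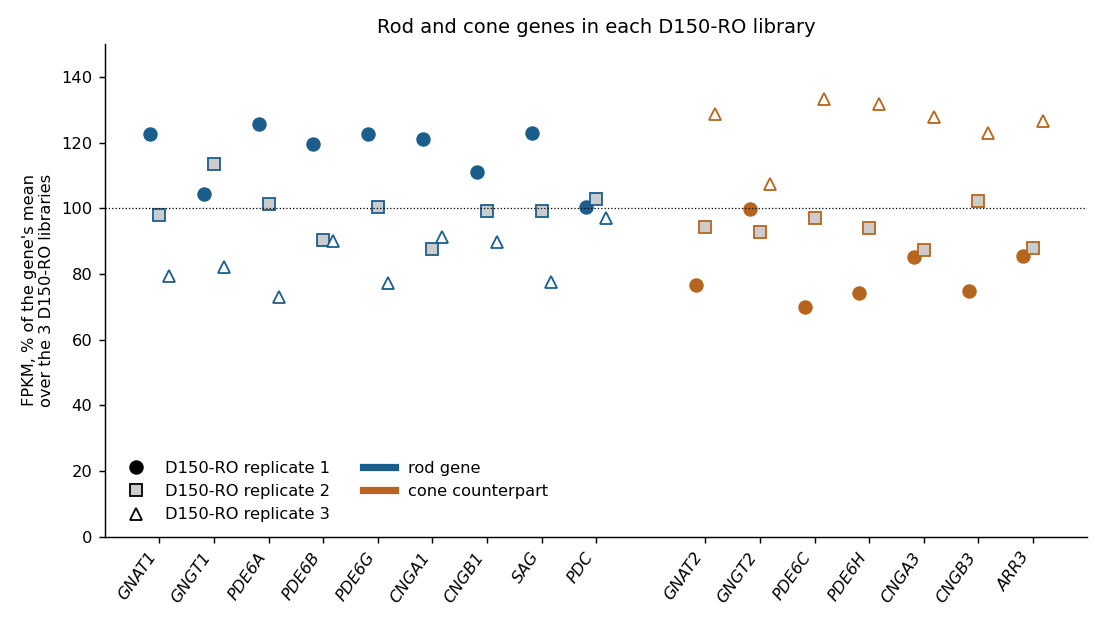
FPKM of each rod gene and cone counterpart in the 3 D150-RO libraries, as a percentage of that gene's mean over the 3. Replicate 1 (filled circles) lies above replicate 3 (open triangles) for all 9 rod genes and below it for all 7 cone counterparts.

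The comparison of iMGCs with D150-ROs asks what was left of the rod genes in cells expanded from that tissue. All 8 members that could be tested were called lower in P1 iMGCs, beside 24.1% of all genes tested, and the same 8 in P5 iMGCs, beside 23.9%. All 8 passed the filter through D150-ROs alone, and both comparisons share the D150-RO libraries. GNAT1, GNGT1 and SAG had no read in any of the 6 iMGC libraries. GNAT1, with 9453 reads over the D150-RO libraries, was at least 3274-fold lower in P1 and at least 3267-fold lower in P5 iMGCs. The bounds were 1340-fold and 1337-fold for GNGT1, and 189-fold in both passages for SAG, which had only 547 reads in D150-ROs. CNGB1 had 2 reads in P1 and none in P5, which makes it at least 6057-fold lower in P5. In P1 the D150-RO to P1 ratio of CNGB1 had a 95% counting interval from 2520 to 75195. PDC, the most abundant member in D150-ROs, had 2 reads in P1 and 3 in P5, with ratios of at least 3014 and 2478 at the lower end of their counting intervals.

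The other members kept a few reads. PDE6B had 12, 5 and 6 reads in P1 and 2, 11 and 9 in P5, or 0.20 to 0.64 FPKM, and had log2 fold changes of −8.29 ± 0.19 and −8.30 ± 0.21 (adjusted p = 1.33e-15 and 1.36e-15). PDE6A had 8 reads in P1 and 18 in P5, with log2 fold changes of −7.52 ± 0.35 and −6.32 ± 0.29 (adjusted p = 1.06e-11 and 3.27e-12). PDE6G had 7 and 5 reads, with log2 fold changes of −7.66 ± 0.33 and −8.07 ± 0.33 (adjusted p = 4.35e-12 and 7.88e-13). At so few iMGC reads the SEs of PDE6B, PDE6A and PDE6G can be smaller than counting error alone. Without P1 iMGC replicate 1 or replicate 3 the P1 value of PDE6G was −8.29 or −7.06, and without P5 iMGC replicate 1 its P5 value was −8.69. CNGA1 had 9 reads in P1 and 13 in P5 against 106 in D150-ROs, and its iMGC levels of 0.07 to 0.14 FPKM lay within the hiPSC values of 0.02 to 0.43. No member reached 1 FPKM in 3 iMGC libraries, so P5 could not be compared with P1, a comparison in which 1.94% of all genes tested were called higher and 0.977% lower. The cone counterparts showed the same absence, with at most 14 reads over a passage (GNGT2 in P5). All 7 were called lower in both passages, beside 24.1% and 23.9% of all genes tested. All 7 passed the filter only through D150-ROs, so a difference in them was built in.

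Regulators and recovery genes form a list of 14 genes, among them the transducin beta subunit, the RGS9 complex that ends the transducin signal, pigment kinases, guanylate cyclases with their activators, and the sodium-calcium exchangers. In D150-ROs against D70-ROs 10 of the 12 tested were called higher, beside 16.6% of all genes, and none lower (0 of 12), the median log2 fold change being 3.42. RGS9BP, GRK1, GUCY2D and SLC24A2 passed the filter there only through D150-ROs. At day 70, 2 of 6 tested were called higher than in hiPSCs, beside 22.5% of all genes tested. These 2, RCVRN and GUCA1B, passed the filter only through D70-ROs. In both iMGC passages, P1 and P5, against D150-ROs 10 of 12 were called lower, beside 24.1% and 23.9% of all genes. Of those called lower, all but GNB5, and RGS9 in P1, passed the filter only through D150-ROs, so a difference in them was built in. GNB1, the beta subunit that joins GNAT1 and GNGT1 in rods but is used by many cells, had the highest level of this list in D150-ROs. It measured 447.78, 420.06 and 393.40 FPKM there and 212.29, 238.99 and 227.17 FPKM in D70-ROs, but its count-based log2 fold change was −0.16 ± 0.08 (adjusted p = 0.0997), so its direction depends on whether length-scaled levels or counts are read. It stayed at 141.54 to 163.25 FPKM in the iMGCs, in which both of its rod partners had no reads.

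Of the 7 photoreceptor transcription factors, all 7 were called higher at day 150 than at day 70, beside 16.6% of all genes, with a median log2 fold change of 1.83. All 7 were called lower in P1 and in P5 iMGCs than in D150-ROs, beside 24.1% and 23.9%. In P1 all 7, and in P5 all but OTX2, passed the filter only through D150-ROs, so a difference in them was built in. Between day 70 and day 150 this held for NR2E3 alone. OTX2, which acts early in photoreceptor fate, had the highest level of the list in D150-ROs (467.55, 419.42 and 454.46 FPKM) and was already at 127.13, 132.33 and 136.66 FPKM in D70-ROs. NRL, which directs precursors to the rod fate, measured 2.65, 4.07 and 2.43 FPKM at day 70 and 238.47, 214.93 and 180.21 FPKM at day 150, a log2 fold change of 6.35 ± 0.21 (adjusted p = 9.28e-08). NRL was lowest in D150-RO replicate 3, as were 8 of the 9 rod genes. So were 3669 of the 12340 genes at 1 FPKM or more in the 3 D150-RO libraries. Of the 7 factors, 3 including NRL were lowest in replicate 3 and 3 were highest there.

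The genes whose pattern was most like the members were found by Pearson's correlation, over the 15 libraries, of log2(FPKM + 1) with the mean of the 9 members, among 13907 genes with 1 FPKM or more in at least 3 libraries. They were ABCA7 (r = 0.998), a lipid transporter, PRPH2 (r = 0.998), a structural protein of outer segment discs, NRL (r = 0.997), CA10 (r = 0.997), a carbonic anhydrase-related protein, and DOCK8 (r = 0.996), an exchange factor for small GTPases. CA10 is also among the bipolar cell markers summed above. The points share the 5 groups, so these values describe a common step between D150-ROs and the rest. PRPH2 averaged 1.51 ± 0.13 FPKM at day 70 and 107 ± 7.54 FPKM at day 150. ABCA7 averaged 6.10 ± 0.37 and 122 ± 12.8 FPKM at these stages and, unlike the members, kept 2.48 ± 0.20 FPKM in P1 iMGCs. Among the members themselves, CNGB1 (r = 0.995) and GNGT1 (r = 0.994) followed the mean of the other 8 most closely, and CNGA1 (r = 0.856) and PDE6G (r = 0.898) least.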

How the data were processed

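Per the labels and methods, 15 poly(A) RNA libraries were sequenced. The authors used HISAT2 for mapping, StringTie for assembly and RSEM for quantification. Versions, genome build and annotation are not given in the sources used here. The authors deposited expected counts, estimated reads that are not normalized, and FPKM, scaled by the authors for length and mapped reads. Between 8.21% and 10.1% of the expected counts were not whole and were rounded. 12 columns of a further table were not used, since its iMGC columns name no passage. All 19684 identifiers matched GENCODE 29, which gave the gene symbols, positions, gene types and exon overlaps. Promoter windows came from RefSeq.

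Groups were compared in pairs with edgeR 4.0.16 (R 4.3.3; TMM, quasi-likelihood test, no covariates) on genes reaching 1 FPKM in 3 or more of the libraries compared, with Benjamini-Hochberg adjustment over all genes tested; calls needed a 2-fold or larger change and an adjusted p below 0.05. A count of 0 was read as up to 3 counts per group; these limits and the 95% intervals cover counting error only. With 200 genes changed 4-fold in simulated data, edgeR recovered 99.5% of them for D150-RO against D70-RO (12855 genes) and 100% in the other 5 comparisons. False calls numbered 0 to 4. The changed genes were drawn from those with more than a few reads, so the recovery does not cover members near 0 in a group. Alternatives were DESeq2 1.42.0, limma 3.58.1 on log2(FPKM + 1) or log2(FPKM + 0.1), upper-quartile scaling, no filter, 1 fit of all 15 libraries, a replicate block and leaving out each library. Named genes were the members, genes of 3 pathway lists at a matching step or with the highest D150-RO level, and the 5 genes most like the members. The members and lists were chosen with earlier results of these data known.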

Additional observations from a re-analysis of the deposited data

How the results depend on the processing

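The 8 rod members called in D150-ROs against D70-ROs, in D150-ROs against hiPSCs and in both iMGC passages against D150-ROs stayed at 8 under every alternative that kept the filter, and came to 9 without it, where CNGA1 was called as well. In D70-ROs against hiPSCs limma on log2(FPKM + 1) called 2 members in place of 4, and without the filter there were 5, CNGA1 being called lower (−6.11, adjusted p = 0.00535). PDE6B in that comparison, at −0.03, changed sign with upper-quartile scaling (0.063), limma on log2(FPKM + 1) (0.26) or log2(FPKM + 0.1) (0.31), and without hiPSC replicate 1 (0.056) or D70-RO replicate 3 (0.092), never past the threshold; without each library in turn it ran from −0.11 to 0.092. Without a filter, 6 regulators and recovery genes were called in D70-ROs against hiPSCs in place of 2, and 1 regulator and 3 transcription factors in P5 against P1 in place of 0 and 1; limma on log2(FPKM + 1) called 0 of those factors. The causes were not tested.

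The rod share in D150-ROs was 53.3% without GNGT1 and GNGT2 and 58.7% from counts, where D70-ROs were at 12.7%. Leaving out each library gave 38.9% to 46.1% in D150-ROs and 7.19% to 7.99% in D70-ROs. Fits without a library kept the genes tested with all libraries, because a gene above 1 FPKM in 1 group only cannot reach 3 libraries once one of them is removed. Equal replicate numbers did not pair the libraries (correlations of deviations from −0.07 to 0.34, with the best match at the same number in 14 of 30 cases), and with the replicate block 8 members were called in D150-ROs against D70-ROs and 4 in D70-ROs against hiPSCs. The median over all genes shifted by up to 0.30 for the organoid comparisons and to −0.73 for the iMGC comparisons on the FPKM scale. Counts near 0 in iMGCs limit fold changes there to bounds.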
